A study of Homo sapiens with 13 samples.

Results

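The 9 genes described here are very long, lie at or near common fragile sites, and were followed through the accessible chromatin of 2 small cell lung cancer (SCLC) lines. They were DMD, FHIT, WWOX, MACROD2, LRP1B, CSMD1, CNTNAP2, IMMP2L and AUTS2, 9 of 20015 protein-coding genes and 9 of the 219 that span at least 600 kb in GENCODE release 44 on hg38. The set was chosen from earlier results on the same atlases, and the counts, densities, empty stretches and overlaps given below are the values it was proposed on, so they are given as a description with no test. The shortest member was IMMP2L at 900 kb and the longest was CNTNAP2 at 2305 kb.

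Open chromatin was mapped with ATAC-seq, a method that relies on a transposase (Tn5) inserting adapters where DNA is exposed, in H82 and H146 cells, both established human SCLC lines of neuroendocrine type. Each line was profiled untreated (3 H82 and 4 H146 samples) and after 14 days with FHD-286 at 100 nM, an inhibitor of the SMARCA4 and SMARCA2 ATPases of the SWI/SNF remodeling complex (3 samples of each line). The paper states that 3 untreated H146 samples were sequenced in 1 batch and the other H146 samples in another. What was analyzed is 1 atlas per line, the union of regions called in any of its samples and kept after filtering against blacklisted regions. The atlas gives no read count, score or sample behind a region. There are therefore no replicates, treated and untreated cells cannot be told apart, and depth is unknown; the intervals below cover counting error only.

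Common fragile sites are stretches of the genome that break when DNA replication is slowed. Many coincide with very large genes, where transcription of the whole gene takes long, replication origins are sparse in the gene body, and the last part to be replicated can remain unfinished at mitosis. Deletions inside these genes are frequent in tumors, and several of the genes are used mainly in neurons or muscle.

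The H82 atlas listed 206927 regions over the 24 nuclear chromosomes against 174093 for H146, a ratio of 1.19, and ratios of counts within a gene are given relative to it. Of all regions, 59.3% in H82 and 70.5% in H146 overlapped a region of the other line by at least 1 bp. The start sites of POU2F3, INSM1, SYP and CHGA, markers of SCLC subtype and neuroendocrine state, carried a region within 1 kb in both lines, and that of NEUROD1, which drives the subtype H82 belongs to, carried one in H82 and not in H146.

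Start sites are shown at the outset because they are where the members differed most plainly in sequence and where most of them were alike in accessibility. Each line below is the 200 bases before an annotated start on hg38, written 5′ to 3′ on the strand of the gene, with each CG dinucleotide in capitals. FHIT, LRP1B and AUTS2 are among the 8 members whose gene start carried a region in both lines. Of the 8, AUTS2 has the highest GC content in this window and LRP1B the lowest. The DMD sequences are a start with no region in either line, a start in intron 29 with a region in H82 alone, and a start in intron 62 with a region in both lines.
FHIT gene start, chr3:61251460-61251659, minus strand: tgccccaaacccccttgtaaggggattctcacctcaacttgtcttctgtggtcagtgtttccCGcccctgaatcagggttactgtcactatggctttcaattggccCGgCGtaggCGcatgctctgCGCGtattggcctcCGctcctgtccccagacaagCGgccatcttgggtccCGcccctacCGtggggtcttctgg
LRP1B gene start, chr2:142131017-142131216, minus strand: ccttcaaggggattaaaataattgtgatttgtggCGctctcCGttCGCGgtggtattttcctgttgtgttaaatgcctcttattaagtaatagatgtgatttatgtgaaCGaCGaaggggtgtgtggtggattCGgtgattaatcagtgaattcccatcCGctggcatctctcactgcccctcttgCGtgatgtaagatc
AUTS2 gene start, chr7:69598096-69598295, plus strand: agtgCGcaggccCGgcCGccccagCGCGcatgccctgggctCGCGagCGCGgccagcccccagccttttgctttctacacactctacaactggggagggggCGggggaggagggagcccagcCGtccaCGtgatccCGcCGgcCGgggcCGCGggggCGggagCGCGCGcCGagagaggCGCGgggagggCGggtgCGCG
DMD canonical start, chrX:33211550-33211749, minus strand: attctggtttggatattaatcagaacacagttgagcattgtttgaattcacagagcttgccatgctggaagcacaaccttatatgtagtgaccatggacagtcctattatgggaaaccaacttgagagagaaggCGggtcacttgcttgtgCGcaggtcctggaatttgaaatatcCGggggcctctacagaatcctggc
DMD start in intron 29, chrX:32412238-32412437, minus strand: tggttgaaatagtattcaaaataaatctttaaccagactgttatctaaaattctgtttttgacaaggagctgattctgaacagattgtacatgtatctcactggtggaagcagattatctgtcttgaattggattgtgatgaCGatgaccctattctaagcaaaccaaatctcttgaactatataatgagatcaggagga
DMD start in intron 62, chrX:31266972-31267171, minus strand: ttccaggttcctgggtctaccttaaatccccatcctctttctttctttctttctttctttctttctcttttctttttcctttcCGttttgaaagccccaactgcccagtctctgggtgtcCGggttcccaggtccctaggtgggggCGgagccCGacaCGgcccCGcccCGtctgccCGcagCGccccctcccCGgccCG

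The FHIT window held 10 CG dinucleotides at a GC content of 59.5%, the LRP1B window 9 at 44.5% and the AUTS2 window 27 at 78.0%. Over all protein-coding genes, the AUTS2 window stood at percentile 91.8 of GC content and the LRP1B window at percentile 14.0. The canonical DMD start held 3 CG dinucleotides at 46.0% GC, the start in intron 29 held 1 at 34.5%, and the start in intron 62 held 11 at 59.0%. The outermost annotated start of DMD, at chrX:33339609, had 2 CG dinucleotides and 35.5% GC, percentile 3.52 of all genes. Of all 15 annotated DMD starts, the richest in CG was one in intron 48, at chrX:31863054, with 13 CG dinucleotides and 60% GC, and it had no region in either line.

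A region lay within 1 kb of the gene start in both lines in 8 of 9 members, against 77.2% of the 219 genes of at least 600 kb. DMD was the exception, with no region at its outermost start in either line. The widest of these promoter regions was that of AUTS2, 4869 bp in H82 and 4711 bp in H146, and the narrowest was that of FHIT, 746 and 596 bp.

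Along the gene bodies the members held 726 regions in H82 and 581 in H146, counting regions wholly inside the gene, or 47.5 and 38.0 per Mb pooled. By the median over genes, members had 37.2 regions per Mb in H82 and 39.4 in H146, where the other 210 long genes had 49.4 and 42.3. Regions made up a median of 2.01% of the gene body in H82 and 2.33% in H146. The pooled count in H82 over H146, relative to the ratio of all regions, was 0.07 on the log2 scale (95% interval -0.09 to 0.23), a sum over members of opposite direction such as DMD and CSMD1. Without DMD, the only member on chromosome X, it was -0.03 (-0.19 to 0.13).

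Within each line the density differed more among the members than it did between the lines for any member but DMD. DMD had 26.5 times as many regions in H82 as in H146. AUTS2 had 159 regions per Mb in H82, the 2nd densest of the 219 long genes, and 107 in H146, the 15th densest. IMMP2L followed with 70.0 and 60.01 per Mb, CNTNAP2 with 62.9 and 53.8, and WWOX with 47.6 and 42.2. FHIT had 37.2 and 34.6 per Mb, MACROD2 34.5 and 39.4, and LRP1B 31.6 and 21.1. At the sparse end CSMD1 had 17.0 per Mb in H82 and 25.7 in H146, while DMD had 23.6 in H82 and 0.892 in H146, the lowest density of the 219 genes in that line. The 95% Poisson intervals of the counts, taken per Mb, cover counting error only and test no difference between genes. Those of neighbors in the density order of each line overlapped. The exceptions were AUTS2 and IMMP2L in both lines and LRP1B and DMD in H146.

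**Figure D1:**
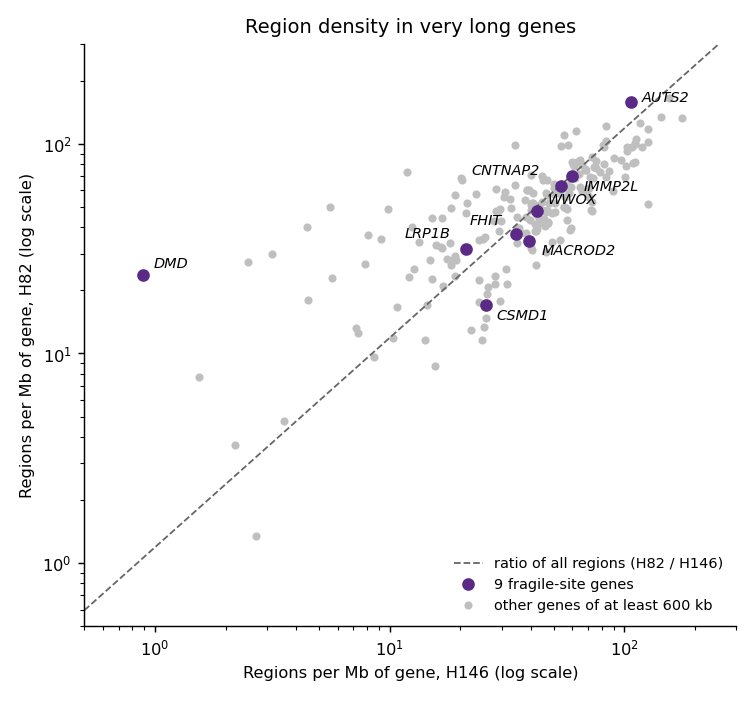
Regions per Mb of gene in H146 (x axis, log scale) and in H82 (y axis, log scale) for the 9 fragile-site genes (purple) and the other 210 protein-coding genes of at least 600 kb (gray); the dashed line is the ratio of all regions, 1.19. DMD lies far above the line at 0.892 per Mb in H146 and 23.6 in H82, CSMD1 lies below it, and the other 7 members lie along it.

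A ratio at least 1.5-fold from the genome ratio was found in 2 members. DMD was relatively higher in H82, 1 of 9, where 18.1% of the long genes and 21.6% of all protein-coding genes with at least 10 regions in the lines together were higher by that fold. CSMD1 was relatively higher in H146, 1 of 9, where 14% of the long genes and 16.2% of all genes were. The other 7 members lay within 1.5-fold, from -0.44 for MACROD2 to 0.34 for LRP1B on the log2 scale. The median over the members was -0.03, and it was -0.08 over the long genes and -0.01 over all genes.

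DMD encodes dystrophin, which links the actin cytoskeleton of muscle fibers to a complex in the membrane, and shorter forms are made from internal starts in brain, retina, Schwann cells and many other tissues. The gene runs over 2242 kb of the minus strand, chrX:31097677-33339609, with 79 exons in the canonical transcript. H82 held 53 regions and H146 held 2 within it, a log2 ratio of 4.48 relative to the genome (2.55 to 7.56), the highest of the 215 long genes with enough regions. Regions covered 1.24% of the gene in H82 and 0.0347% in H146. Both H146 regions overlapped an H82 region, and 51 of the 53 H82 regions had no counterpart.

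The 2 H146 regions sat near the ends of the gene. The one near its end, chrX:31266596-31267173, was 578 bp wide and lay on the start in intron 62 shown above, which gives the short dystrophin form found in most non-muscle tissues. Its H82 counterpart was 1219 bp wide. The other, chrX:33336929-33337128, lay 2.68 kb to 2.48 kb inside the gene start, away from any annotated start, and was 200 bp wide, the narrowest width in either atlas. Its sequence is given because it is the only other place in DMD listed in both lines, with the E-box CAGCTG, a form bound by basic helix-loop-helix factors, in capitals.
DMD region in both lines, chrX:33336929-33337128, written on the minus strand: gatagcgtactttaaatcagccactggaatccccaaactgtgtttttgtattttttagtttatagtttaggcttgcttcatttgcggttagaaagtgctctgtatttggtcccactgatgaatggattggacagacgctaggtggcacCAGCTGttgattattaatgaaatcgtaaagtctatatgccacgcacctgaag
The word CAGCTG, which reads the same on both strands, was present in 15.0% of all H82 regions of 200 bp and in 16.9% of those in H146. Its presence here is a description, and whether it is bound was not tested.

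Between these 2 regions no H146 region was listed over 2070 kb, chrX:31267174-33336928, which is 92.3% of the gene and holds 62 of the exons of the canonical transcript. H82 held 47 regions in that interval, covering 1.14% of it. The reference held 0 unknown bases there, and its GC content of 36.2% was close to the 36.4% of the whole gene. It was the 8th longest of 36 runs of over 1 Mb without an H146 region, counted over all chromosomes with centromeres and the long arm of Y included. The H82-only regions of DMD lay a median of 307 kb from the nearest H146 region and at most 1029 kb. For the other members this median ran from 2.49 kb in AUTS2 to 50.6 kb for the only such region in CSMD1. Such distances depend on how many regions the other line has in the gene, which for DMD in H146 is 2. An absent region means that none was called and kept after filtering in any H146 sample. The copy number of DMD in H146 cannot be read from the atlas. Neither the density of 0.892 per Mb nor the 2070 kb stretch is therefore a measure of accessibility per copy.

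In H82 the DMD regions were unevenly placed. With the gene divided into 10 equal parts from its start, parts 9 and 10 held 11 each of the 54 regions centered in it and part 4 held 8, while part 6 held 1. The longest H82 stretch without a region was 292 kb, chrX:32015254-32307308, from intron 42 to intron 44, and intron 44, the largest at 248 kb, held 1 region. The widest region of the gene, 1612 bp at chrX:31378944-31380555, was in intron 60. Of 15 annotated starts, 3 had an H82 region within 1 kb (in introns 1, 29 and 62) and 1 had an H146 region.

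The low count in H146 did not extend evenly over chromosome X. The chromosome as a whole had a log2 ratio of 0.25 relative to the genome. In the 1 Mb before the DMD start H82 had 3 regions and H146 had 2, too few to compare. In the 1 Mb after its end they had 29 and 17. The other long genes of the chromosome follow in order of log2 ratio, with counts in H82 and H146. TENM1 had 57 and 61 regions, STS 30 and 28, FRMPD4 47 and 43, DACH2 16 and 13, and PCDH11X 4 and 3. IL1RAPL1 had 5 and 3, DIAPH2 44 and 26, FGF13 17 and 9, and ENSG00000250349 44 and 21. The last, IL1RAPL2, had 33 in H82 and 3 in H146 (log2 ratio 3.21).

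**Figure D2:**
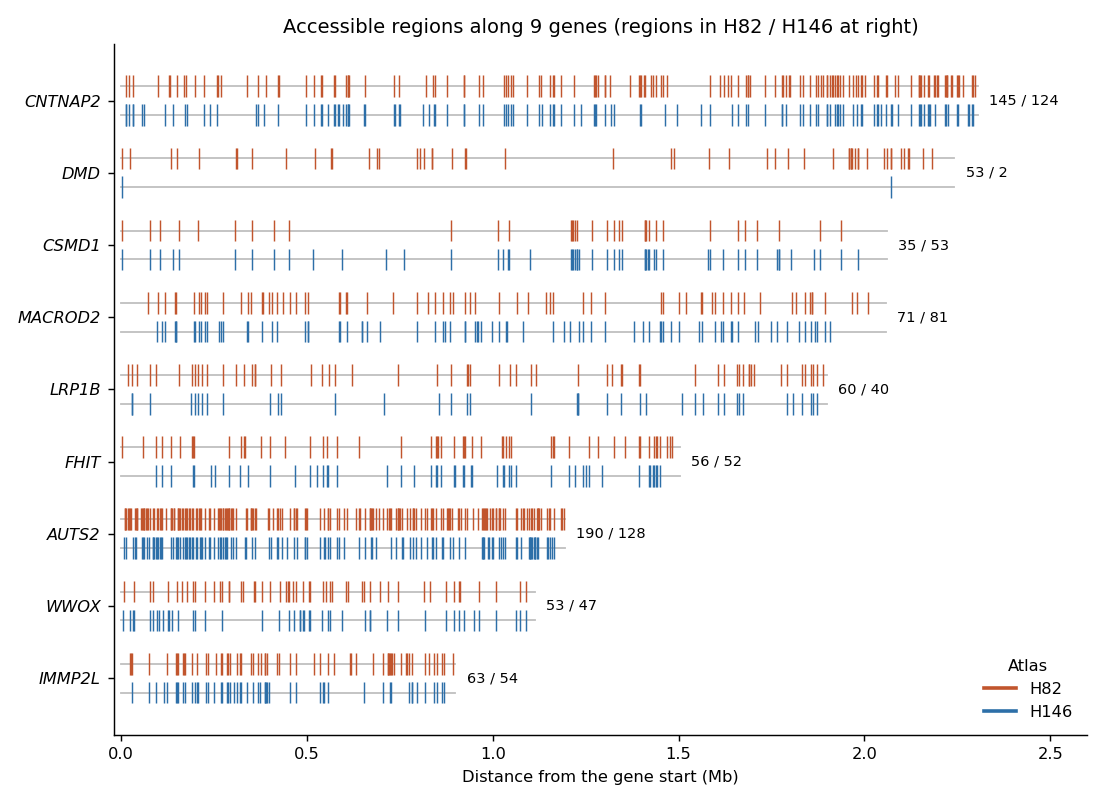
Position of each accessible region (tick) as distance from the gene start in Mb along the 9 genes, longest at the top, in H82 (orange, upper line of each gene) and H146 (blue, lower line), with the counts at the right. In DMD the 53 H82 ticks stand over 2 in H146, in CSMD1 the H82 line is empty over 434 kb, and AUTS2 is densely filled in both lines.

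CSMD1, which encodes a membrane protein with CUB and Sushi domains that restrains complement in the brain, showed the opposite pattern to DMD. It spans 2060 kb of chromosome 8 and held 35 regions in H82 and 53 in H146, a log2 ratio of -0.85 (-1.51 to -0.21), rank 203 of 215. Of the 35 H82 regions 34 were also in H146 (97.1%, 95% interval 85.1 to 99.9), and 19 of the 53 H146 regions were in that line alone. The H82 regions of CSMD1 were thus nearly a subset of those in H146. The longest stretch without a region in H82 was 434 kb, from intron 2 into intron 3, 21.1% of the gene, and H146 had 5 regions there that covered 0.295% of it. Intron 3, the largest at 388 kb, held 1 region in H82 and 4 in H146. Part 7 of its 10 equal parts held the most regions in both lines, 10 of 36 in H82 and 12 of 54 in H146. Chromosome 8 as a whole had a log2 ratio of -0.35, in the same direction as the gene.

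FHIT, a hydrolase of dinucleoside polyphosphates, and WWOX, an oxidoreductase with WW domains that bind proline-rich partners, lie at the fragile sites that break most often in lymphocytes and are regarded as tumor suppressors. FHIT (chr3:59747277-61251459) held 56 regions in H82 and 52 in H146, of which 31 overlapped in each line, and a log2 ratio of -0.14 (-0.71 to 0.43). Its longest stretches were 112 kb in H82 and 133 kb in H146, and these overlapped between intron 4 and intron 5, leaving 74.0 kb that was empty in both lines. Intron 5, the largest at 523 kb and the usual site of deletions in this gene, held 21 regions in H82 and 22 in H146, 40.2 and 42.1 per Mb against 35.7 and 30.6 in the rest of the gene. WWOX (chr16:78099400-79212667) held 53 and 47 regions, 23 of them overlapping, which at 43.4% in H82 and 48.9% in H146 was the lowest overlapped share of the autosomal members in each line. Its intron 8 makes up 70.0% of the gene and held 35 and 30 regions. The longest stretch of WWOX was 70.2 kb in H82 and 106 kb in H146; the H146 stretch, from intron 5 to intron 8, contained 6 H82 regions. The widest WWOX region was nearly the same in both lines, 2945 bp in H82 and 3081 bp in H146, in intron 8 and starting at the same base, chr16:78659318.

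MACROD2, which removes mono-ADP-ribose from proteins, held 71 regions in H82 and 81 in H146 over 2058 kb of chromosome 20, a log2 ratio of -0.44 (-0.92 to 0.04). It had the most H146-only regions of any member, 41, beside 31 in H82 alone. Its longest stretches were of equal length, 150 kb, but in different places, over introns 6 to 7 in H82 with 6 H146 regions in it and at the 3′ end of the gene in H146 with 3 H82 regions in it. The H146 stretch ran on past the end of the gene to a length of 285 kb.

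LRP1B, a large endocytic receptor of the LDL receptor family, held 60 regions in H82 and 40 in H146 over 1900 kb of chromosome 2, a log2 ratio of 0.34 (-0.27 to 0.95). It had the lowest GC content of the members, 34.8%. Of its H146 regions 30 of 40 were also in H82, which left 10 in H146 alone against 30 in H82 alone. Stretches of over 100 kb made up 56.1% of LRP1B in H146, and the longest was 162 kb, between introns 6 and 11. The longest in H82 was 148 kb, between introns 35 and 43.

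CNTNAP2, a neurexin-like protein that clusters potassium channels along myelinated axons, is the longest of the 9 genes and held 145 regions in H82 and 124 in H146, a log2 ratio of -0.02 (-0.38 to 0.33). Of these, 90 in H82 (62.1%) and 89 in H146 (71.8%) overlapped. Regions gathered at the 3′ end in both lines, where parts 9 and 10 of its 10 equal parts held 27 each in H82 (18.5%) and 21 and 20 in H146 (16.8% and 16.0%). Its intron 1, the largest at 657 kb, held 30 in H82 and 34 in H146, 45.6 and 51.7 per Mb against 69.8 and 54.6 in the rest of the gene. The widest regions of CNTNAP2, 3523 bp in H82 and 3862 bp in H146, both lay in intron 15. An internal start at chr7:148339461, in intron 21, carried a region in both lines.

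IMMP2L, a subunit of the peptidase of the inner mitochondrial membrane, held 63 regions in H82 and 54 in H146, a log2 ratio of -0.03 (-0.57 to 0.53). Its intron 3 spans 524 kb, 58.2% of the gene. There the lines were close, 36 and 40 regions, while the rest of the gene had 71.8 per Mb in H82 and 37.2 in H146. The longest stretch was 47.9 kb in H82 and 96.1 kb in H146, and 4 H82 regions lay in the latter. Of its 4 annotated starts 1, in intron 3, had a region in H82 alone.

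AUTS2, a nuclear protein of a Polycomb-related complex that acts in neuronal development, was the member with the most regions. Regions covered 13.4% of its 1195 kb in H82 and 8.61% in H146. H82 listed 190 regions and H146 128, of which 101 overlapped in each line, and the log2 ratio was 0.32 (-0.01 to 0.66). Its H82-only regions numbered 89, the most of any member. Of the 89, 64 were within 5 kb of an H146 region, with a median distance of 2.49 kb. Of its 27 H146-only regions 26 lay within 5 kb of an H82 region. These distances depend on the density of regions in the gene. The median stretch of AUTS2 between regions was 5.50 kb in H146 and 3.27 kb in H82. Intron 1 held 70 regions in H82 (234 per Mb, against 134 in the rest of the gene) and 50 in H146 (167 per Mb, against 87.1). Intron 4, nearly as long at 301 kb, held 41 and 22. The longest stretches were the shortest among the members, 33.7 kb in H82 and 45.0 kb in H146.

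Of all member regions, 389 of 726 in H82 overlapped H146 (53.6%, exact 95% interval 49.9 to 57.3) and 388 of 581 in H146 overlapped H82 (66.8%, 62.8 to 70.6). The other long genes had 58.1% and 64.6%. With the 8 autosomal members alone the H82 share was 57.5%. Shared regions were wider than line-only ones, with a median of 494 against 401 bp in H82 and 590 against 326 bp in H146. In H146, 6 of 193 line-only regions were at least 1 kb wide against 86 of 388 shared ones. An exon of a protein-coding transcript was touched by 22 of these regions in H82 and 15 in H146, 3.03% and 2.58%. Regions that cross a gene start are left out by the count of regions wholly inside the gene. The same share over the other long genes was not computed, so these values have no baseline.

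**Figure D3:**
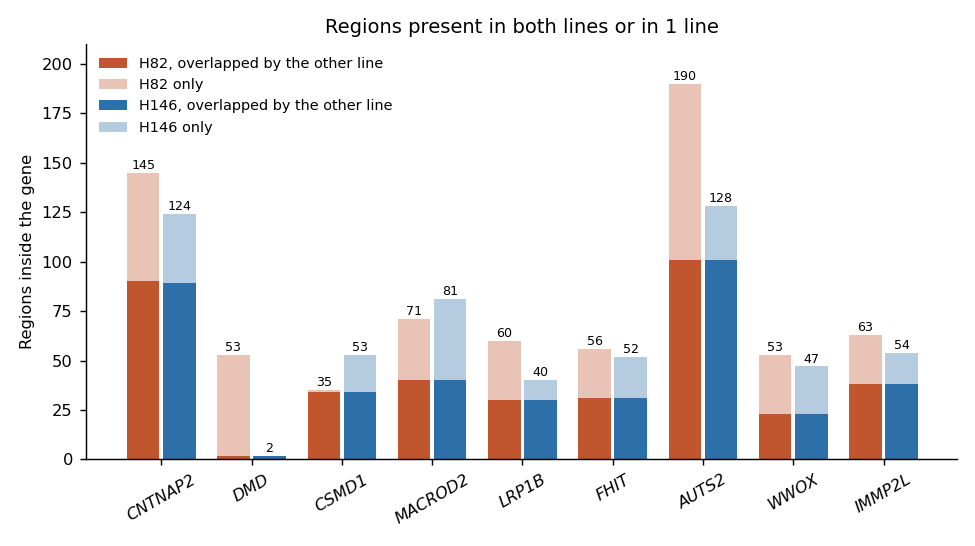
Number of regions wholly inside each gene in H82 (orange) and H146 (blue), divided into regions overlapped by the other line (dark) and regions of that line only (pale), with the total above each bar. DMD is almost all H82 only (51 of 53), CSMD1 has 1 H82-only region of 35, and AUTS2 has the most H82-only regions, 89.

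The longest stretch without a region had a median over the members of 116 kb in H82 and 133 kb in H146, against 98.8 and 108 kb over the other long genes. It was at least 1.5 times longer in H82 in 1 member, CSMD1 (434 against 149 kb), where 11% of the long genes were, and at least 1.5 times longer in H146 in 3 members, DMD, WWOX and IMMP2L, where 27.4% were. With regions of at least 500 bp alone the order of the medians turned, to 304 kb in H82 and 180 kb in H146, and WWOX was no longer among the latter (218 kb in H82 and 152 kb in H146). Counting both lines, 72.5% of DMD and 67.5% of CSMD1 lay in runs of over 50 kb with no region in either line, as did 40.3% of LRP1B. In FHIT, WWOX, MACROD2 and CNTNAP2 this share was 11.1 to 18.7%, and in IMMP2L and AUTS2 there was no such run. The longest run empty in both lines was 292 kb in DMD and 33.5 kb in AUTS2.

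**Figure D4:**
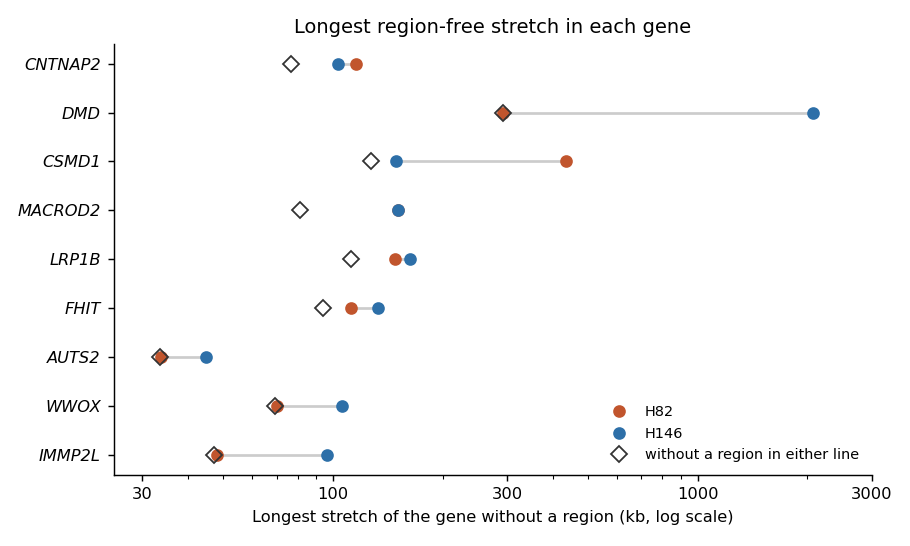
Longest stretch inside each gene (kb, log scale), longest gene at the top, with no region in H82 (orange points), in H146 (blue points) or in either line (open diamonds). DMD reaches 2070 kb in H146 and CSMD1 434 kb in H82; in MACROD2 both points lie at 150 kb and the blue one covers the orange.

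Along the length of the 9 genes together, regions were placed much as in the other long genes. Of 10 equal parts, each held between 7.35% (part 4) and 13.1% (part 10) of the regions in H82 and between 7.48% (part 8) and 12.6% (part 9) in H146. In the other long genes the range was 8.54 to 11.8% in H82 and 8.58 to 11.7% in H146, and part 10 held the most in both. The GC content of the members ran from 34.8% in LRP1B to 42.6% in WWOX. Across the 9 genes the rank correlation of GC content with region density was 0.25 in H82 and 0.35 in H146, and across the 219 long genes it was 0.39 and 0.26; the genes of a line share its libraries, and these are descriptions.

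The bases inside the member regions were read for consensus words on both strands. TAATCC, a core bound by OTX2 and related homeodomain factors, occurred 1.34 times per kb in H82-only member regions, 0.484 times in H82 regions shared with H146 and 0.492 times in H146-only regions. Over all regions of the atlases these densities were 1.26, 0.469 and 0.448, so the members followed the genome. TGTTTAC, a FOXA word, occurred 0.479 times per kb in H146-only member regions and 0.229 times in H82-only ones, with 0.315 and 0.130 over all regions. The E-box CAGATG, bound by NEUROD1 among others, had a density of 1.21 per kb in the H82-only member regions and 0.930 in the H146-only ones, with 1.24 and 0.895 over all regions. The CTCF consensus was matched in 17 of the 388 shared H146 member regions (4.38%) against 10.5% of all shared H146 regions. In line-only member regions the share was 3.63% in H146 and 1.48% in H82, against 3.92% and 3.06% of all line-only regions. The member regions leave out those that cross a gene start, whereas the regions of the whole atlas include promoters. Region width was not matched between them either. Member regions were poorer in GC, 43.2% in shared H82 regions against 53.4% over all shared H82 regions, and the part of base composition in these word counts was not tested.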

How the data were processed

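ATAC-seq was done on untreated H82 (3) and H146 (4) samples and on 3 samples of each line given 100 nM FHD-286 for 14 days. The authors trimmed reads (Trim Galore 0.4.4), aligned them to hg38 (Bowtie2 2.3.4) and called peaks with MACS2. They filtered the peaks against blacklisted regions and merged those within 500 bp over all samples of a line. The deposited values are region starts and ends in bp; 0 columns with values of unmapped samples occurred. Positions are 1-based. A planned test of FHD-286 needed counts per sample and was not run.

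Regions wholly inside GENCODE release 44 gene spans on hg38 were counted in Python 3.11.15 (numpy 2.4.6, scipy 1.17.1). Overlap meant at least 1 bp. Log2 ratios are relative to the ratio of all regions, with exact binomial 95% intervals; a fold of 1.5 was called for genes with at least 10 regions in both lines together. Scripts were tested on simulated data. The members and lists were chosen with earlier results of these data known. All members are named, as are the 2 highest and 2 lowest log2 ratios of 12 other listed fragile-site genes and of the other long genes, except that some items the rules name are not reported here. Alternatives were other definitions of inside, gene span, overlap, width and genome ratio.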

Additional observations from a re-analysis of the deposited data

How the results depend on the processing

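With regions of at least 500 bp in both atlases, the member regions numbered 308 in H82 and 273 in H146, the overlapped share in H146 was 60.8%, and the median longest stretch was 304 kb in H82 and 180 kb in H146, the reverse of the order with all regions. DMD and IMMP2L kept a longest stretch at least 1.5 times longer in H146 and CSMD1 in H82, WWOX did not (218 kb in H82, 152 kb in H146), and FHIT (325 and 171 kb) and MACROD2 (304 and 163 kb) became at least 1.5 times longer in H82. With overlap of at least 50% of both regions, the overlapped share was 43.1% in H82 and 53.9% in H146. On autosomes only, the overlapped share in H82 was 57.5%. Between regions shared by both lines, the median longest stretch was 187 kb in each line. The pooled log2 ratio ranged from -0.03 to 0.14 over 8 alternatives, and every interval included 0. The alternatives draw on much the same regions, and the intervals cover counting error only. They therefore test no difference between the lines, and the pooled ratio sums members of opposite direction. For the alternative with covered bases in place of counts, the interval was taken from the region counts. The ratio was below 0 with regions of at least 500 bp, without AUTS2 and on autosomes only. DMD stayed at least 1.5-fold higher in H82 and CSMD1 in H146 under all 6 alternatives of the fold, and IMMP2L joined CSMD1 with regions of at least 500 bp. No paired analysis was possible because each atlas pools all samples of its line; for the same reason no sample could be left out.

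The limits are those of the atlases. A region called in any sample counts as present, so deeper or more numerous samples add regions, and a place with no region has no stated upper limit of signal. Sites closer than 500 bp were merged by the authors, so a width is not that of a single site. Line-only regions were narrower than shared ones, 326 against 590 bp in H146, and the part of region strength in the overlapped shares was not tested.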

Other observations

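Of 12 other large genes listed at common fragile sites, all of at least 600 kb, the atlases held 834 regions in H82 and 598 in H146, of which 49.2% and 68.4% overlapped the other line. The 2 with the highest log2 ratio of H82 over H146 relative to the genome were DLG2, a scaffold of the postsynaptic density, with 87 and 27 regions (1.44, 95% interval 0.80 to 2.12), and RBFOX1, a neuronal splicing factor, with 80 and 41 (0.72, 0.15 to 1.30). The lowest was CTNNA3, a catenin of heart muscle, with 47 and 58 regions (-0.55, -1.14 to 0.03). The median over the 11 of them with at least 10 regions was 0.34. The longest stretch without a region was at least 1.5 times longer in H146 in 6 of the 12 and in H82 in 0 of them, where 27.4% and 11% of all protein-coding genes of at least 600 kb were.

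Among all other protein-coding genes of at least 600 kb, the highest log2 ratios were 3.21 in IL1RAPL2 (33 regions in H82 and 3 in H146) and 2.999 in ANKFN1 (19 and 2), and the lowest were -1.54 in TENM3 (34 and 83) and -1.35 in KHDRBS2 (7 and 15). IL1RAPL2, like DMD, lies on chromosome X, and its longest stretch without a region was 217 kb in H82 and 576 kb in H146.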
